A study of Mus musculus with 5 samples.

Results

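The regions described here are the bodies and start sites of the mouse olfactory receptor genes, taken as the protein-coding genes of the GENCODE vM1 annotation of mm9 on chromosomes 1 to 19 whose symbol starts with Olfr and a number. There were 1106 such genes among 21418 protein-coding genes of these chromosomes. They lay on 17 chromosomes, with none on chromosomes 12 and 18, and 7 more on chromosome X were set aside. The choice used names and positions only and no measured value. A body runs from the first to the last annotated base of a gene, and the start site is its 5′ end. The start was the first coding base in 632 of the 1106 genes, so for many of them the annotated start is that of the reading frame and may lie inside the transcript.

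H3K27me3, the trimethyl mark that Polycomb Repressive Complex 2 (PRC2) places on lysine 27 of histone H3, was mapped by chromatin immunoprecipitation and sequencing in mouse embryonic fibroblasts (MEFs) whose Eed gene, for a subunit of PRC2, is floxed. Peak lists of 3 of the 5 libraries were analysed, each from 1 library of 1 group of MEFs, stably transduced by lentivirus. The first group expressed the histone H3.3 K27R, the second H3.3 K27M and the third the human EZHIP protein. The floxed parental cells and the Eed deletion line, a single selected clone, were not analysed here. The K27R cells are the reference used below, because H3.3 K27M and EZHIP inhibit PRC2 and H3.3 K27R lacks the methionine of the inhibitor. With 1 library per group no difference could be set against the spread between cultures, so that no p-value is given and values describe these libraries. The cells were profiled in bulk, and a peak does not tell in what share of the cells the mark was present.

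Olfactory receptors are G protein-coupled receptors of the nasal epithelium, and each mature olfactory neuron expresses a single one of them. Their genes stand in long tandem arrays, mostly with short intron-free coding sequences, and are mostly silent in other cell types. In olfactory neurons the arrays are packed in constitutive heterochromatin, whereas PRC2 is best known for CpG islands of developmental genes, from which H3K27me3 can spread over broad domains. H3.3 K27M and EZHIP both bind PRC2 and lower the amount of the mark in cells.

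The stretches around 4 of these start sites show how little of the sequence of a CpG island an olfactory receptor gene carries. Each runs 5′ to 3′ on the strand of the gene, from 250 bases before to 50 bases from the start in mm9, with every CG pair in capitals. The reading frame begins at the start of the first 3 genes and not at that of the last. Olfr1411 (chr1:94492848-94493147, plus strand) kept a peak in all 3 lists. Its neighbour Olfr1412 (chr1:94484659-94484958, plus strand) had one in K27R cells only. Olfr462 (chr11:87703347-87703646, minus strand) also kept its peak in all 3 lists, and Olfr1140 (chr2:87586068-87586367, plus strand) is the middle gene of the largest cluster and lay in no peak.
Olfr1411: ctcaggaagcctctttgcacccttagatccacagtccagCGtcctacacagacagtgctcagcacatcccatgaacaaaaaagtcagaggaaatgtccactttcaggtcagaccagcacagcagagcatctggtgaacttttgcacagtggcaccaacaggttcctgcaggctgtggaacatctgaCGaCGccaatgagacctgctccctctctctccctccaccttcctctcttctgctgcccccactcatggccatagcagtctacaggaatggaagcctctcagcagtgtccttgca
Olfr1412: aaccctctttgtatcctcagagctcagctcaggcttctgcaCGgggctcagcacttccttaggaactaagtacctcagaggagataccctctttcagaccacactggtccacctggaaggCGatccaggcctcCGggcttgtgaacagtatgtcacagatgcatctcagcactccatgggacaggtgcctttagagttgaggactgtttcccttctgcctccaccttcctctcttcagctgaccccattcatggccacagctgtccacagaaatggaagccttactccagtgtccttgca
Olfr462: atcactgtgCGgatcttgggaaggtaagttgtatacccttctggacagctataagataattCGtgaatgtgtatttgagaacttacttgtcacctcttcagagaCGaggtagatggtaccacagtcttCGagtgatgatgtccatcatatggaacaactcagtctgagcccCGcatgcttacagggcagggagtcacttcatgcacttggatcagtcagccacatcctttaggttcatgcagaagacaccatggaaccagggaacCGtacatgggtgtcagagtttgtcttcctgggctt
Olfr1140: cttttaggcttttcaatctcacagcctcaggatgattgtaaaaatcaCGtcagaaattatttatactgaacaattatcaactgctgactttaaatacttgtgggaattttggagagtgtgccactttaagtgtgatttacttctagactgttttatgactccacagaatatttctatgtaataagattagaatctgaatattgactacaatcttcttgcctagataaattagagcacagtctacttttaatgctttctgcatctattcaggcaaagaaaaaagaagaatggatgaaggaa

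Olfr1411 and Olfr1412 both had 3 CG pairs and 53.7% G+C, and 216 of 300 bases were identical after alignment. In both inhibitor lists the first gene lay in a peak and the second did not. Olfr1412 stood in a gap between called peaks of the same cluster in each of these lists. Olfr462 had 6 CG pairs and Olfr1140 had 1, with 47.3% and 32.7% G+C. CpG islands were called in mm9 as segments over 200 bp in which G+C made up at least 50% of bases and CG pairs exceeded 0.6 of the number that base composition predicts. An island lay within 500 bp of the start in only 2 of the 1106 genes (0.181%), against 56.0% of all other genes. The median start window of 300 bases held 1 CG pair in olfactory receptor genes and 13 in all other genes. At most 2 CG pairs were found in 86.1% and 15.6%, respectively. The genes were also short, with a median body of 0.96 kb against 17.2 kb, and 921 had a single exon.

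In K27R cells, 224 of the 1106 bodies overlapped a peak by at least 1 bp (20.3%, 95% exact Clopper-Pearson interval 17.9 to 22.7). The same held for 34.2% of all protein-coding genes. Start sites, whose share does not grow with gene length, lay inside a K27R peak in 213 genes (19.3%, 16.97 to 21.71), against 28.2% of all protein-coding genes. The olfactory receptors were thus in K27R peaks less often than the background on both measures, and the intervals did not reach the background values. These intervals cover counting error only and treat genes as independent, whereas neighbours share peaks, so they are narrower than the data warrant. Of the 224 bodies, 197 were covered whole and 27 in part. Measured by length the order was the opposite, since 22.5% of the bases of olfactory receptor bodies lay in K27R peaks and 19.1% of those of all other genes.

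In K27M cells 11 bodies overlapped a peak (0.995%, 0.498 to 1.77), where the background was 11.3%. Start sites inside a K27M peak numbered 10 (0.904%), where the background was 8.94%. In EZHIP cells the counts were 16 bodies (1.45%, 0.829 to 2.34; background 10.9%) and 12 start sites (1.08%; background 7.96%). The intervals of the K27M and EZHIP shares overlapped each other, and both were below the backgrounds. Counting peaks within 5000 bp raised the EZHIP shares to 2.71% of bodies and 2.35% of start sites. The K27M shares rose to 1.54% and 1.45%. A wider window raises the share of any set, and the inhibitor shares of other genes at this setting are not given here. By length, K27M peaks held 0.597% and EZHIP peaks 1.96% of the bases of these bodies, against 1.97% and 1.71% for all other genes. The EZHIP value rests on 1 gene, the long body of Olfr288, and without it fell to 1.10%, below that of other genes. Joining peaks up to 10000 bp apart raised the K27M length share to 1.16%, and the value of other genes after joining is not given here.

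**Figure D1:**
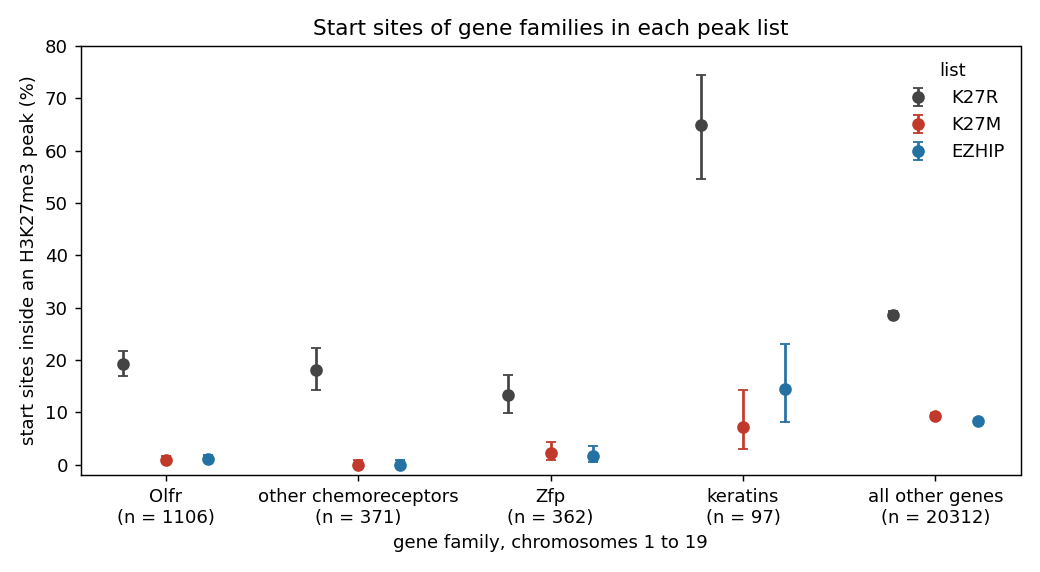
Percent of start sites inside an H3K27me3 peak (vertical axis) for 5 sets of genes (horizontal axis) in the K27R, K27M and EZHIP lists. Points are shares in 1 library and bars are 95% exact intervals for counting error. Olfr start sites stand at 19.3% in K27R and near 1% in both inhibitor lists, and keratin start sites stand highest in K27R.

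Other multigene families were set beside the olfactory receptors. The other chemoreceptors, which are the vomeronasal, trace amine and bitter taste receptors, had 74 of 371 bodies in K27R peaks (19.9%), close to the olfactory receptors, and 0 of 371 in either inhibitor list, which allows a share of up to 0.989%. Zfp genes, which encode zinc finger proteins and are often arrayed as well, had 67 of 362 bodies in K27R peaks (18.5%). The keratin genes, taken here together with those of keratin-associated proteins, encode proteins of epithelia and hair and also stand in arrays. They had 64 of 97 bodies in K27R peaks (65.98%). The low K27R share was therefore not common to all arrayed families.

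Among the 224 bodies in K27R peaks, 11 also lay in a K27M peak (4.91%, 2.48 to 8.62) and 16 in an EZHIP peak (7.14%, 4.14 to 11.3). Of all protein-coding bodies in K27R peaks, 32.7% did so for K27M and 31.7% for EZHIP. The start sites gave 10 of 213 for K27M (4.69%), against a background of 31.6%, and 12 of 213 for EZHIP (5.63%), against a background of 28.2%. The number kept by the Zfp genes was 13 of 67 bodies in K27M and 11 in EZHIP. Among keratin genes 11 of 64 bodies were kept in K27M and 23 in EZHIP. The other chemoreceptors kept 0 of 74 in both lists, which allows up to 4.86%.

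Part of this gap went with the lack of islands. Among all other genes, start sites in K27R peaks with an island were kept in 56.0% (K27M) and 48.8% (EZHIP), and those without an island in 13.6% (12.4 to 14.8) and 12.9% (11.7 to 14.1). The 211 olfactory receptor start sites in K27R peaks without an island were kept in 4.74% (2.30 to 8.54) and 5.69% (2.97 to 9.72), still below the genes without an island. When bodies under 2 kb without an island were compared, the shares kept were 4.95% (2.29 to 9.18) and 6.04% (3.06 to 10.6) of 182 olfactory receptors, and 10.1% (7.59 to 13.1) and 8.28% (6.01 to 11.1) of 495 other genes. In that comparison the intervals overlapped for both inhibitors. The K27R share itself stayed lower without islands, at 19.1% of olfactory receptor start sites and 36.0% of the others, and among bodies under 2 kb at 18.7% and 29.9%.

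Base composition ran along with the K27R peaks. Of the start sites whose 300-base window had under 35% G+C, 39 of 527 (7.40%, 5.32 to 9.98) lay in a K27R peak. The share was 48 of 312 (15.4%, 11.6 to 19.9) at 35 to 40% G+C and 59 of 164 (36.0%, 28.6 to 43.8) at 40 to 45%. It reached 67 of 103 (65.0%, 55.0 to 74.2) at 45% or more. Other genes without an island went from 21.6% (17.4 to 26.3) in the lowest class to 39.3% (38.0 to 40.5) in the highest. These genes stood at 23.5% (20.8 to 26.3) and 33.9% (31.5 to 36.4) in the classes between. The olfactory receptors were thus below them in the 2 classes poorest in G+C and above them in the richest, and in the class of 40 to 45% the intervals overlapped. The limits of these classes were chosen after the values were seen.

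**Figure D2:**
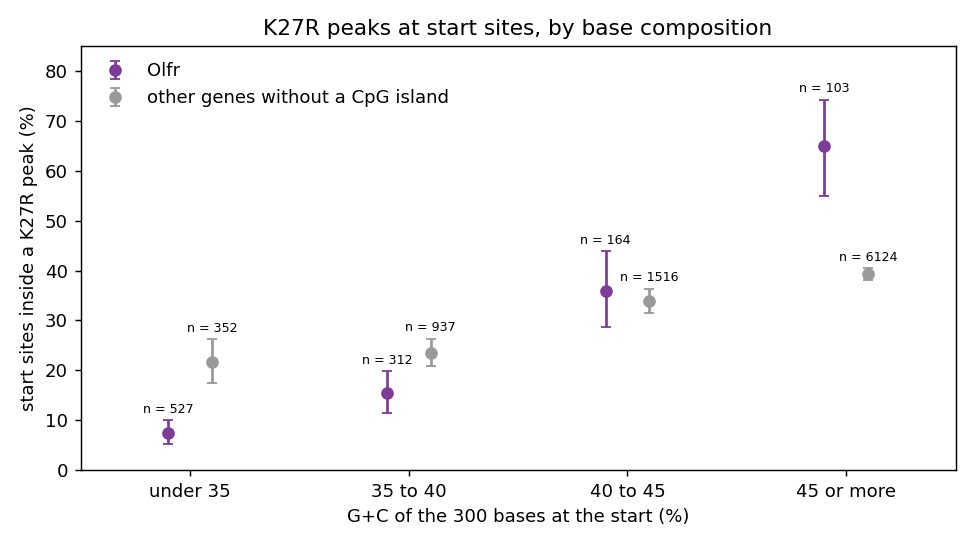
Percent of start sites inside a K27R peak (vertical axis) by the G+C of the 300 bases at the start (horizontal axis), for olfactory receptor genes and for other genes without a CpG island. Points are shares in 1 library, bars are 95% exact intervals for counting error, and n is the number of genes. The Olfr share rises from 7.40% to 65.0%.

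Peaks that were kept lay almost wholly at the start sites rich in G+C. Of the 146 olfactory receptor start sites in K27R peaks with under 45% G+C, 1 was in a K27M peak and 1 in an EZHIP peak (0.685%, 0.0173 to 3.76, in each). Of the 67 with 45% or more, 9 were in a K27M peak (13.4%, 6.33 to 24.0) and 11 in an EZHIP peak (16.4%, 8.49 to 27.5). For other genes without an island the shares kept were 7.65% and 9.51% below 45% G+C, and 15.6% and 14.0% from 45% upward. In the richer class the intervals of the olfactory receptors and of other genes without an island overlapped, and in the poorer class the olfactory receptors were kept less often. The kept genes came from few places, with 5 of them in the cluster of chromosome 1, and neighbours share peaks. These intervals treat genes as independent and are thus narrower than the data warrant, and the limit of 45% was set after the values were seen. The part that G+C plays in the recovery of fragments and in the calling of peaks was not tested, since the lists hold no reads.

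Similar receptor genes share sequence, which limits where reads can be placed. As a measure, the share of 31-base words found once in the genome was taken within 1000 bp of each start. Its median was 88.9% in olfactory receptor genes and 98.5% in all other genes, and it was 84.1% in the olfactory receptor genes in K27R peaks and 89.2% in those outside. With the genes split into 4 classes of like size by this share, from the lowest to the highest, 25.99%, 18.48%, 15.64% and 20.86% of bodies were in K27R peaks. At the median, the genes outside K27R peaks thus had more unique words near the start than those inside. The part that read placement plays in the calling of peaks was not tested. Among the 741 genes with at least 80% of words found once, the K27R share of bodies was 18.2%.

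The marked genes were distributed very unevenly over the chromosomes. On chromosome 2, which carries 286 olfactory receptor genes, 2 bodies were in K27R peaks (0.699%), while 38.3% of the other genes of that chromosome were. Chromosome 9 had 3 of 129 (2.33%), with 37.1% of its other genes. Chromosome 7 had 19 of 240 (7.92%), and there the other genes were low as well, at 20.7%. In contrast, 55 of 81 bodies were marked on chromosome 11 (67.9%), 21 of 29 on chromosome 6 (72.4%), 22 of 24 on chromosome 4 (91.7%) and 9 of 9 on chromosome 15. The other genes of these chromosomes stood at 38.8%, 36.9%, 33.4% and 43.1%. The mark kept under the inhibitors was on fewer chromosomes still. The 11 bodies in K27M peaks were on chromosomes 1 (5), 11 (4), 15 (1) and 17 (1), and the 16 in EZHIP peaks on chromosomes 11 (8), 1 (5) and 15 (3).

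Neighbouring olfactory receptor bodies up to 500 kb apart were joined into runs, which gave 53 runs. Of these, 32 held at least 5 genes, called clusters here, and together carried 1067 of the genes. The bases of the clusters spanned 29.3 Mb, of which 15.3% lay in K27R peaks, 0.341% in K27M peaks and 0.783% in EZHIP peaks. Over the autosomes 20.8% of bases lay in K27R peaks. The clusters differed strongly from each other. Every body was in a K27R peak in 7 clusters, no body in 9, and some bodies in 16.

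Small runs were marked more fully than large ones. Of the genes in runs of 1 to 4 genes, 31 of 39 were in K27R peaks (79.5%), followed by 41 of 63 in clusters of 5 to 9 genes (65.1%) and 92 of 279 in clusters of 10 to 29 genes (33.0%). In clusters of 30 to 65 genes the count was 39 of 281 (13.9%), and in the 3 clusters of 94 to 221 genes it was 21 of 444 (4.73%). Across all 53 runs the Spearman correlation of the number of genes with the share marked was -0.46, and across the 32 clusters it was -0.43. Both are descriptions over runs of 1 library, and the size classes were set after the values were seen. The largest run with every body in a K27R peak had 20 genes.

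**Figure D3:**
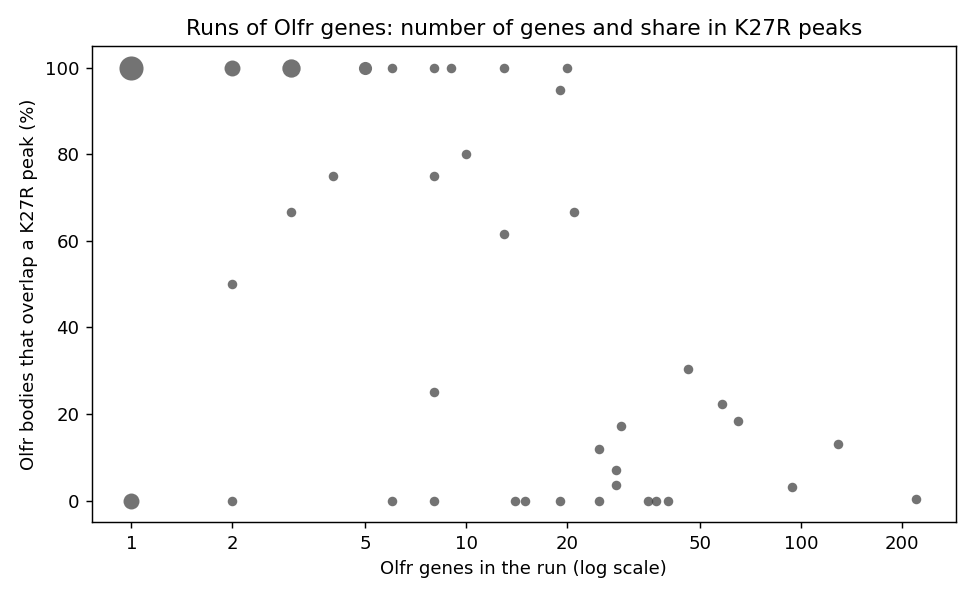
Number of olfactory receptor genes in each of 53 runs (horizontal axis, log scale) against the percent of their bodies that overlap a K27R peak (vertical axis). Each point is a run, and larger points are several runs with the same values. No run of more than 20 genes is marked at every gene, and the run of 221 genes stands near 0.

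The 7 fully marked clusters had a median of 8 genes and a median span of 160 kb, and the G+C of their spans ran from 41.6% to 45.8%. The 9 clusters with no marked body had a median of 19 genes and 471 kb, with G+C from 36.0% to 42.0%. The 16 clusters between had a median of 28 genes and 985 kb, with G+C from 37.0% to 42.3%. Only the highest values of the latter groups thus reached the range of the fully marked clusters. Over the 32 clusters, the Spearman correlation of G+C with the share marked was 0.70 and that of G+C with the number of genes was -0.61, so that size and composition cannot be told apart in this set. The flanks differed in the same order, with a median of 51.1% of the 500 kb on both sides in K27R peaks at fully marked clusters, 32.2% at those marked in part and 6.40% at those with no marked body.

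The largest cluster, on chromosome 2 from Olfr987 to Olfr1272, held 221 genes in 4951.68 kb. A single one of its bodies, that of Olfr1233, overlapped a K27R peak, and 0.319% of its bases were covered. The 500 kb before this cluster were 77.3% covered and the 500 kb after it 3.28%. At least 80% of the words near the start were found once in the genome for 149 of its 221 genes, and 1 of these was in a K27R peak. Chromosome 7 from Olfr543 to Olfr692 had 17 of 129 bodies marked and 8.10% of its bases covered, and here the flanks were no higher, at 0% and 2.88%. From Olfr151 to Olfr986 on chromosome 9, 3 of 94 bodies were marked and 4.45% of bases covered, between flanks at 44.7% and 77.2%. The chromosome 19 cluster from Olfr1417 to Olfr1505 had 12 of 65 bodies and 17.3% of bases in K27R peaks, and the chromosome 10 cluster from Olfr9 to Olfr827 had 13 of 58 and 17.5%. None of these 5 clusters had a body in a K27M or an EZHIP peak.

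At the other end, 5 clusters of at least 5 genes had every base inside K27R peaks. They were the clusters of chromosome 1 from Olfr1416 to Olfr12 (8 genes), chromosome 6 from Olfr211 to Olfr215 (5 genes), chromosome 11 from Olfr1378 to Olfr1375-ps1 (5 genes) and from Olfr30 to Olfr311 (20 genes), and chromosome 15 from Olfr288 to Olfr279 (9 genes). All 5 had at least 5 genes in 1 peak. The 9 genes of chromosome 15 stood in a single K27R peak of 357.4 kb and the 20 genes of chromosome 11 in one of 490.0 kb.

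Within most large clusters the marked genes stood toward the edges. Of the 16 clusters of at least 20 genes, 15 were not marked at every gene, and these held 881 genes, 85 of them in K27R peaks. Of genes under 50 kb from the nearer edge of the cluster, 23 of 77 were marked (29.9%, 19.97 to 41.38). The share was 12 of 51 (23.5%) at 50 to 100 kb, 24 of 149 (16.1%) at 100 to 250 kb and 20 of 224 (8.93%) at 250 to 500 kb. Farther in than 500 kb it was 6 of 380 (1.58%, 0.582 to 3.40), and only 9 of the 15 clusters had genes that far in. The clusters that supplied marked genes numbered 10, 7, 5, 6 and 3 from the outermost class to the innermost. Since large clusters were marked less, the same 9 clusters were also followed through every class. They gave 13 of 44 (29.5%, 16.8 to 45.2), 8 of 30 (26.7%), 23 of 91 (25.3%), 12 of 171 (7.02%) and 6 of 380. These counts pool genes, so the largest clusters weigh more in the inner classes than in the outer ones. The step therefore did not separate distance from cluster size. Within single clusters, the marked genes had a shorter median distance to the edge than the unmarked ones in 10 of the 11 clusters with a marked gene. The exception was the cluster of chromosome 6 from Olfr458 to Olfr47, at 293 kb against 26.1 kb. Some of the 10 rest on few marked genes. The cluster from Olfr987 to Olfr1272 had 1, at 942 kb against 1196 kb, and that from Olfr151 to Olfr986 had 3. The 500 kb on both sides of the 15 clusters were 27.3% covered by K27R peaks and their spans 8.07%, with more cover outside than inside in 12 of the 15. Of the 30 outermost genes 9 lay in a K27R peak, a share near the 34.2% of all protein-coding bodies.

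**Figure D4:**
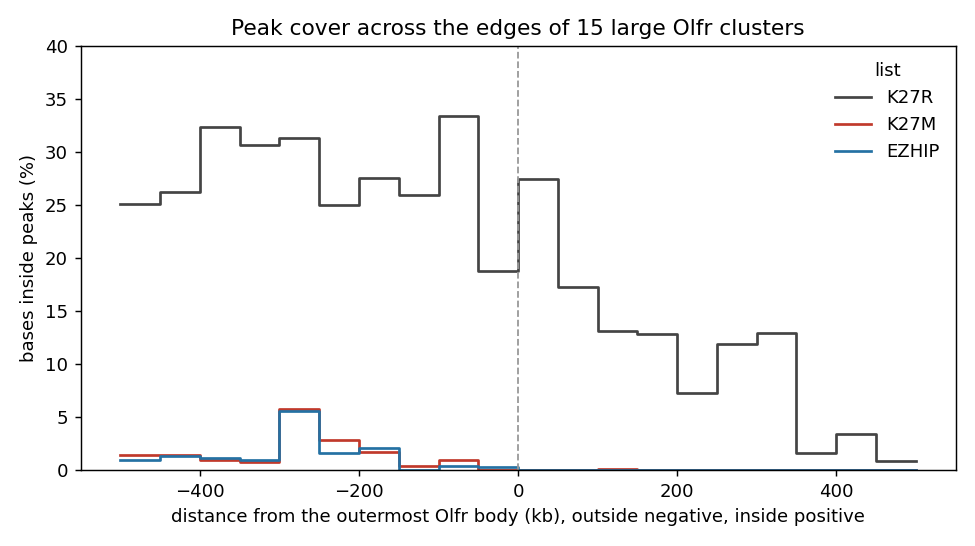
Percent of bases inside peaks (vertical axis) in steps of 50 kb by distance from the outermost Olfr body (horizontal axis, kb, negative outside the cluster), over the edges of 15 clusters of at least 20 genes that were not marked at every gene. K27R cover is 27.4% in the first 50 kb inside and 0.840% at 450 to 500 kb inside, where 20 edges remain, and both inhibitor lists are at or near 0 inside.

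The marked genes often came in consecutive runs. Neighbours can share a peak, so these runs are not a result apart from the width of the peaks. In the chromosome 10 cluster from Olfr9 to Olfr827 the 13 marked genes formed 3 runs, the longest of 11 genes. On chromosome 7 from Olfr543 to Olfr692 the 17 marked genes formed 7 runs, the longest of 9. The 12 marked genes from Olfr1417 to Olfr1505 on chromosome 19 were more scattered, in 7 runs with the longest of 4. In all, 99 K27R peaks overlapped an olfactory receptor body. Their median width was 38.0 kb (quartiles 13.9 and 96.7), and 15.6 kb for the 12093 autosomal K27R peaks, but wide peaks meet a gene body more often. The 471 K27R peaks over bodies under 2 kb of other genes, chosen by the same kind of overlap, had a median of 72.4 kb (quartiles 31.2 and 166). Of the 99 peaks over olfactory receptors, 58 held a single such body, and the 12 with at least 5 bodies accounted for 91 of the genes. These 99 peaks reached beyond the outermost gene of the run in 41 cases (41.4%) and held the start site of another protein-coding gene in 30. They held an island in 26 cases (26.3%), near the 24.3% of all autosomal K27R peaks. Of the 471 peaks over other short bodies, which were wider, 61.4% held one.

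The longest K27R peaks over olfactory receptor start sites were the one over the 20 genes from Olfr30 to Olfr311 (chr11:58169801-58659800, 490.0 kb) and the one over the 9 genes from Olfr288 to Olfr279 (chr15:97981201-98338600, 357.4 kb). They were followed by a peak over Olfr462, Olfr463 and Olfr464 (chr11:87476401-87784400, 308.0 kb), which also held 6 start sites of other genes, among them that of Mpo, the gene of the neutrophil enzyme myeloperoxidase. The next covered the 8 genes from Olfr1416 to Olfr12 (chr1:94371001-94661400, 290.4 kb). The last (chr16:16597401-16880000, 282.6 kb) covered Olfr19 as its only olfactory receptor gene and also held 5 start sites of other genes. Each of these longest peaks held a CpG island and start sites of other genes. The start window of Olfr19 itself had 0 CG pairs and 31% G+C.

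Other protein-coding genes stood inside the cluster spans as well, 128 in all. Of their start sites 31 lay in a K27R peak (24.2%, 17.1 to 32.6), against 182 of the 1067 olfactory receptor start sites of the same clusters (17.1%, 14.8 to 19.5), and the intervals overlapped. Without an island at the start the count of such neighbours was 23 of 100 (23.0%, 15.2 to 32.5). Over all other genes of the autosomes these shares were 28.7%, inside the interval of the neighbours, and 36.0% without an island, above the interval of the neighbours without one. In K27M peaks lay 1 and in EZHIP peaks 5 of the 128.

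A total of 18 bodies overlapped a K27M or an EZHIP peak, and all 18 were in K27R peaks. Nearly all protein-coding bodies in an inhibitor list were so too, 2398 of 2418 for K27M and 2322 of 2332 for EZHIP. The 18 comprised 9 in both inhibitor lists, 2 in K27M alone (Olfr464 and Olfr95) and 7 in EZHIP alone. Of the other protein-coding bodies in K27R peaks, 2803 were in either inhibitor list and 1890 of these in both. None of the 18 had an island at its start. The median G+C of their start windows was 48.3%, against 40.7% for the bodies in K27R peaks that were not kept and 34.3% for those outside K27R peaks, and the median numbers of CG pairs were 2.5, 1 and 1. The 8 K27M peaks over olfactory receptor bodies had a median width of 9.90 kb (1.2 to 45.4) and the 14 EZHIP peaks one of 11.3 kb (1.2 to 34.0). All lay inside K27R peaks. An island was held by 0 of the 8 and 1 of the 14, whereas 57.0% of all autosomal K27M peaks and 36.3% of all autosomal EZHIP peaks held one. Some of these peaks still stood near an island. The distance to the nearest one ran from 1.26 to 65.5 kb for the K27M peaks. For the EZHIP peaks that held none it ran from 1.06 to 72.2 kb. Of the 8 K27M peaks 7 overlapped the EZHIP list, and of the 14 EZHIP peaks 10 overlapped the K27M list. The same shares over all peaks are not given here.

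The cluster of chromosome 1 held more kept genes than any other run. In K27R cells a single peak covered its 8 genes, starting just beyond Ndufa10, which encodes a subunit of mitochondrial complex I, and running on past Myeov2 and Otos. In K27M cells the domain was broken into separate peaks, and 5 genes remained in them: Olfr1416 (chr1:94371801-94383600), Olfr1414 (chr1:94413201-94421200), Olfr1413 (chr1:94466401-94472800), and Olfr1411 with Olfr1410 (chr1:94491401-94510200). In EZHIP cells the same 5 genes lay in peaks, and Olfr1415, Olfr1412 and Olfr12 were outside in both lists. Bodies were covered whole in both lists except that of Olfr1414, covered to 25.3% in K27M and 100% in EZHIP. Peaks covered 37.0% of the bases of the cluster in K27M cells and 51.9% in EZHIP cells.

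**Figure D5:**
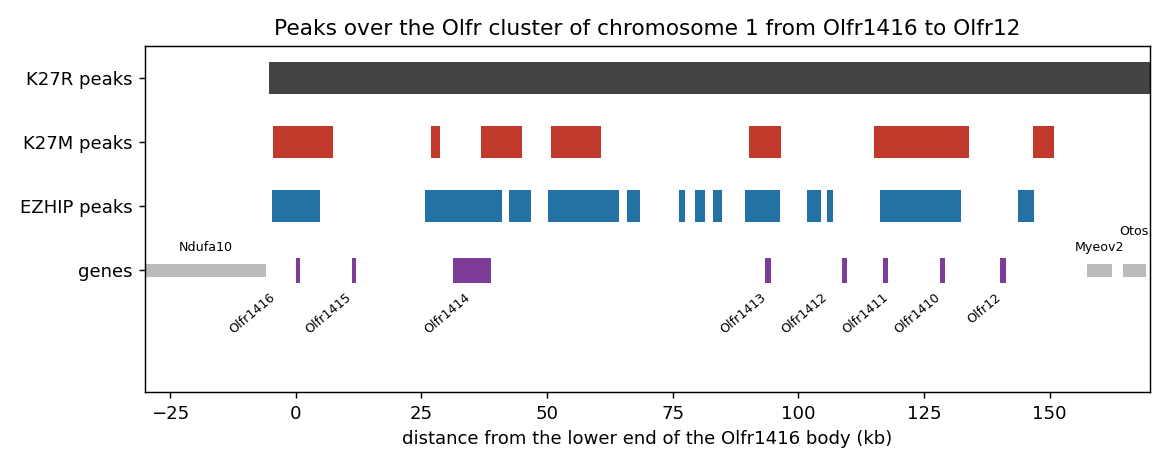
Peaks of the 3 lists and gene bodies along the olfactory receptor cluster of chromosome 1 (horizontal axis, kb from the lower end of the Olfr1416 body). Purple bars are the 8 Olfr bodies and grey bars other genes. The single K27R peak spans the cluster and runs beyond the right border. The K27M and EZHIP lists both have peaks over the same 5 genes, and both also have peaks that touch no Olfr body.

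Chromosome 11 held 9 of the 18 genes, in several runs. Olfr222 was covered whole in both inhibitor lists, and its neighbour Olfr223 was covered to 75.5% in EZHIP and 0% in K27M. Olfr462 and Olfr463 were covered whole in both lists. Olfr464 was covered whole in K27M only. The K27M peak over these 3 genes (chr11:87687401-87732800, 45.4 kb) also held the start site of Epx, which encodes eosinophil peroxidase, and the EZHIP peak over the first pair was 18.0 kb wide. Olfr1371 (chr11:52024001-52029400) and, in the 20-gene cluster, Olfr313 and Olfr311 lay whole in EZHIP peaks and in no K27M peak. Olfr312 was covered to 41.4% in EZHIP and 0% in K27M. The words found once near the start of Olfr1371 were 36.4%, the lowest among the kept genes named here, so the position of its reads is less certain.

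On chromosome 15, Olfr281 lay whole in an EZHIP peak that also held the start site of Lalba, the gene of the milk protein alpha-lactalbumin, and in no K27M peak. The long annotated body of Olfr288 (34.965 kb) was covered to 50.8% in EZHIP and 3.43% in K27M with its start site outside both, and that of Olfr287, which shares bases with it, to 7.09% in EZHIP. On chromosome 17, Olfr95 was covered to 21.8% by a K27M peak of 1.80 kb (chr17:37348601-37350400) with its start site inside, and by no EZHIP peak. Distances to the nearest inhibitor peak were taken for all 224 marked bodies, those that kept a peak included. The median was 239 kb for K27M (quartiles 85.6 and 881) and 155 kb for EZHIP (quartiles 35.6 and 623). Within 10 kb of such a peak, without overlapping it, lay 13 and 18 bodies, respectively. Distances for other genes are not given here.

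The broad K27R peaks over olfactory receptors were not all cleared. Of the 24 K27R peaks of at least 100 kb with an olfactory receptor body, 11 held a K27M peak somewhere (45.8%, 25.6 to 67.2) and 15 an EZHIP peak (62.5%, 40.6 to 81.2). Of the 1286 peaks of that width without one, 63.7% (61.0 to 66.3) and 70.5% (67.9 to 72.9) did so, and the intervals overlapped. Without an island the shares were 3 of 11 for K27M (27.3%, 6.02 to 61.0) and 5 of 11 for EZHIP (45.5%, 16.7 to 76.6), against 22.2% and 33.5% of the 352 others. At the level of the domain the olfactory receptor regions thus gave no detectable difference in what they kept at these numbers. Of the 39 EZHIP peaks inside the cluster spans 10 overlapped an olfactory receptor body and 5 held the start site of another gene, and for the 15 K27M peaks these counts were 6 and 1.

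The genes that serve the receptors in olfactory neurons are single-copy genes outside the arrays, and 23 of them were looked up. In K27R cells 13 of 23 start sites lay in a peak, where 28.2% of all protein-coding start sites did. In K27M cells the count was 4 of 23, beside 8.94% of all start sites, and in EZHIP cells 5 of 23, beside 7.96%. No test was made of the set against the background. Among the 10 transduction genes, 6 start sites were in K27R peaks. Gnal, which encodes the G protein alpha subunit coupled to the receptors, and Slc24a4, an exchanger that ends the response, had their start sites in peaks of all 3 lists. Gng13, Cngb1, Ano2 and Stoml3 had theirs in K27R peaks alone, and Adcy3, the adenylyl cyclase of the pathway, was in none. All 3 receptor transport genes (Rtp1, Rtp2 and Reep1) had their start sites in K27R peaks, and that of Reep1 was also in an EZHIP peak. Omp, a marker of mature olfactory neurons, was in no peak. Among the 9 genes tied to receptor choice or to the nuclear architecture of these neurons, Lhx2 and Ebf4 had their start sites in all 3 lists, and Ebf1 and Ebf2 in K27R peaks alone. The other 5, Ldb1, Emx2, Ebf3, Kdm1a and Lbr, had none at their start. Each of the 4 start sites in K27M peaks had an island, as did 5 of 5 in EZHIP peaks. Of 8 fibroblast genes such as Col1a1 and Vim, 0 had a start site in a peak of any list. Since most start sites of all genes lay outside peaks as well, this count is a weak check of the cell type.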

How the data were processed

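Per the labels, MNase was used on crosslinked chromatin to release mononucleosomes, which were precipitated with an H3K27me3 antibody. The submitters' processing notes name Bowtie 1.0.0 and the mm9 and dm6 builds. The authors called broad peaks with MOSAiCS-HMM, which fits a hidden Markov model to reads in bins, in 1 library per list. The deposited lists hold positions only (12845 in K27R, 3736 in K27M, 4992 in EZHIP peaks), with no height or score. The caller's background library is not given in the sources used here. Because the lists give positions and no read counts, depth is unknown, and a gene outside a peak was not called rather than shown to lack the mark.

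Peaks lay on a grid of 200 bp. Their positions, printed counting from 1, were compared with GENCODE vM1 genes and the mm9 sequence in Python 3.11.15, numpy 2.4.6, scipy 1.17.1, numba 0.67.0 and Biopython 1.88. An overlap needed 1 bp. Islands were found by a running score of 17 for CG and -1 otherwise, without masking of repeats (23502 on the chromosomes used). Start windows were read from the mm9 genome. Shares have 95% exact Clopper-Pearson intervals. The interval and island tools were checked on simulated data.

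The members, gene lists and tests were chosen with earlier results of these data known. The genes named are those in K27M or EZHIP peaks (the 15 ranked first by start site and cover, plus the 3 left over), the 5 clusters with most genes, those with the highest K27R cover (3 by rule, 5 by a tie) and the genes under the 5 longest K27R peaks. Olfr1233, Olfr1140, Olfr458, Olfr47, Mpo, Epx, Lalba and the neighbours on chromosome 1 were added after their values were seen.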

Additional observations from a re-analysis of the deposited data

How the results depend on the processing

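Of 66 recomputed values for 12 results, 56 stayed within the counting interval of the main value and 10 moved. With bodies extended by 5000 bp, 22.9% of bodies were in K27R peaks (43.5% of other genes) and 2.71% in EZHIP peaks. With start sites within 5000 bp of a peak, 22.5% were at K27R peaks (37.2% of other genes) and 2.35% at EZHIP peaks. Merging peaks up to 10000 bp apart gave 1.16% of body length in K27M peaks and 15.7% of cluster length in K27R peaks. For the inhibitor lists, the shares of other genes under these changes are not given here. Cluster length in K27R peaks was 13.8% with neighbours up to 100 kb apart and 16.4% up to 1000 kb apart. A minimum peak width, inclusion of chromosome X or of pseudogenes, other transcript starts and 50% cover of the body gave values inside the interval. Leaving out Olfr288 gave 21.6% of body length in K27R peaks and 1.10% in EZHIP peaks. This and the restriction to start regions with at least 80% of words found once were added after the values were seen. No paired analysis was possible because each group has 1 library. The peak lists hold neither depth nor replicates, so cells, cultures and calling thresholds cannot be told apart from the transgene.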
